A study of Mus musculus with 12 samples.

Results

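The 7 genes described here encode secreted regulators of Wnt signaling. *Sfrp1*, *Sfrp2*, *Sfrp4* and *Frzb* (also known as Sfrp3) encode secreted Frizzled-related proteins, and *Rspo1*, *Rspo2* and *Rspo3* encode R-spondins. They were picked by name from an expression table of 15671 genes, on the authors' mean expression in *Scx*-/- and control cells and on the presence or lack of Scx ChIP-seq peaks around each gene. Of the table's genes, 12123 had an average over both groups of at least 1 FPKM (a level of mRNA in sequenced fragments, scaled to transcript length and library size), and all 7 genes were among them. The group means and peak counts served in the choice, so they are given below as a description without a test, whereas the DNA sequence of the peaks was not used for it.

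RNA-seq measured GFP+ cells sorted from E15.5 forelimbs of 3 *Scx*-/- embryos and of 3 control littermates, whose genotype, wild type or *Scx*+/-, is not given per sample. All 6 came from crosses in which both parents carried the Scx-GFP transgene, so cells of both genotypes were sorted by a transgenic reporter of *Scx* promoter activity and not by Scx protein. The study describes this reporter as weaker and less orderly in mutant than in control limbs, so the gate may have taken different cells in the 2 genotypes, which was not tested. In the *Scx*-/- allele, made by the KOMP Consortium, a lacZ cassette replaces the whole coding sequence. ChIP-seq measured E13.5 forelimbs of *Scx* Flag/Flag embryos, in which the endogenous Scx protein carries a FLAG tag at its carboxy terminus, with 3 ChIP samples and 3 input samples. Each of the 3 biological repeats pooled 10 pairs of forelimbs, and the tissue was not sorted. Binding was thus measured in whole limbs at E13.5, and mRNA in sorted cells at E15.5.

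Wnt ligands signal through Frizzled receptors and the coreceptors Lrp5 and Lrp6. Secreted Frizzled-related proteins carry a cysteine-rich domain like that of Frizzled and bind Wnt ligands outside the cell. R-spondins bind Lgr receptors and the ubiquitin ligases Znrf3 and Rnf43, which otherwise remove Frizzled from the cell surface, and so keep Wnt receptors available. In the limb, Wnt signals pattern the bud and take part in the choice between cartilage and connective tissue.

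Scx, a basic helix-loop-helix protein, binds E-boxes, sites of the form CANNTG. A total of 12 Scx peaks of 200 bp were assigned to 4 of the genes, and the sequences of 6 of them are shown because they hold the E-boxes and the Nfat core TGGAAA to which the results refer. They were read from the mouse genome GRCm38 (mm10) in the direction of the gene, 5′ to 3′, and the number after each name is the distance in bp of the peak center from the gene start, with a minus sign for upstream. Capitals mark each CANNTG and each TGGAAA, which reads TTTCCA on the other strand.
Frzb +3541: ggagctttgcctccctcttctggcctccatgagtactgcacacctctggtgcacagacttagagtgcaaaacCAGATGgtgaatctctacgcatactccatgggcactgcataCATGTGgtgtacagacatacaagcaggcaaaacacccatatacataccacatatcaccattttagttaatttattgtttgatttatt
Frzb +41140: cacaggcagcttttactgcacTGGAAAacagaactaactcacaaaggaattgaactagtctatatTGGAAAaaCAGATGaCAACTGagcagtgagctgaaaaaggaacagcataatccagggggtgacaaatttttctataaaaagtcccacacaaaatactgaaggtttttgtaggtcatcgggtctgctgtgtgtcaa
Rspo1 -32348: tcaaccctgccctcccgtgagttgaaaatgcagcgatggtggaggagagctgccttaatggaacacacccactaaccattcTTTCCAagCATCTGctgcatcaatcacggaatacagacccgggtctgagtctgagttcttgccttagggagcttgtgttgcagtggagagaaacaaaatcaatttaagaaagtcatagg
Rspo3 -123715: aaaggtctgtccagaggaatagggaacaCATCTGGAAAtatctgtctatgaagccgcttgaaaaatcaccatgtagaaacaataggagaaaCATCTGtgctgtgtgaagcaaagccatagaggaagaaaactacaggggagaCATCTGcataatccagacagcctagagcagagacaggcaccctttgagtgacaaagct
Sfrp2 -31919: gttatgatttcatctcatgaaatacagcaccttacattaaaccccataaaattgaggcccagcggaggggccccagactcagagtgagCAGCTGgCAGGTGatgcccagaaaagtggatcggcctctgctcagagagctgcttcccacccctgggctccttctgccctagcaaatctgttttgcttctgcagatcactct
Sfrp2 +61856: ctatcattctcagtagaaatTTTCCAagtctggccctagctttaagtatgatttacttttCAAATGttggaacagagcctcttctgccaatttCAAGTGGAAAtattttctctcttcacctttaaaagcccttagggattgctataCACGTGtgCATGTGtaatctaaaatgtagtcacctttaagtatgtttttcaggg

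The peaks lie at chr2:80443984-80444183 in an intron of *Frzb*, chr2:80406385-80406584 between genes downstream of *Frzb*, chr4:124953982-124954181 between genes upstream of *Rspo1*, chr10:29659482-29659681 between genes upstream of *Rspo3*, chr3:83734302-83734501 between genes upstream of *Sfrp2* and chr3:83828077-83828276 downstream of *Sfrp2* in an intron of *Gm7115*. The *Frzb* and *Rspo3* sequences are those of the minus strand.

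*Sfrp4*, *Rspo2* and *Sfrp1* had higher mean levels in *Scx*-/- cells than in control cells, by 1.97-fold, 1.53-fold and 1.34-fold. *Frzb* was 1.20-fold higher, and *Rspo1*, *Rspo3* and *Sfrp2* lay within 10% of equal means. The levels below are the authors' means per genotype. Single samples were not analysed here, so the means carry no error, and no difference could be set against the spread between embryos. In a sorted population, more cells of a type and more RNA per cell cannot be told apart.

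Among the Frizzled-related genes, *Sfrp4* stood out by its ratio. In humans, loss of SFRP4 causes Pyle disease, a disorder of bone shape with thin cortical bone. Its authors' mean was 26.4 FPKM in *Scx*-/- cells, against 13.4 FPKM in control cells, a log2 ratio of 0.97. It ranked 11 of 12123 genes by this ratio. Of the 5495 genes with an average of at least 10 FPKM it ranked 1, and it was the single gene among them (0.0182%) at 1.5-fold or more in this direction. The gene lies at chr13:19623104-19632994 on the plus strand.

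*Sfrp1* encodes a Wnt-binding antagonist and was, after *Sfrp2*, the most highly expressed of the 7 genes. It averaged 45.4 FPKM in *Scx*-/- cells and 33.7 FPKM in control cells, a log2 ratio of 0.43 and a rank of 194 by ratio (20 of the 5495 genes at 10 FPKM or more). In absolute terms its difference of 11.6 FPKM came close to that of *Sfrp4*, 12.9 FPKM. *Sfrp1* spans chr8:23411502-23449632 on the plus strand. *Frzb*, a Wnt antagonist gene of developing cartilage, was the lowest of the 7 genes, at 3.00 FPKM in *Scx*-/- cells and 2.51 FPKM in control cells (log2 ratio 0.26, rank 677). It occupies chr2:80411970-80447625 on the minus strand.

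*Sfrp2*, the most abundant of the 7, hardly differed between the means. It reached 76.7 FPKM in *Scx*-/- cells and 77.5 FPKM in control cells, with a log2 ratio of -0.02, and ranked 555 of 12123 genes by level. Its place is chr3:83766321-83774316 on the plus strand. As shares of the summed group means, which carry no error, the 4 genes compared as follows. *Sfrp2* made 50.6% of the summed FPKM of the 4 genes in *Scx*-/- cells and 60.9% in control cells. *Sfrp4* made 17.4% in *Scx*-/- cells and 10.5% in control cells, *Sfrp1* 29.96% in *Scx*-/- cells and 26.5% in control cells, and *Frzb* 1.98% in *Scx*-/- cells and 1.97% in control cells. The sum itself was 151 FPKM in *Scx*-/- cells and 127 FPKM in control cells.

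**Figure D1:**
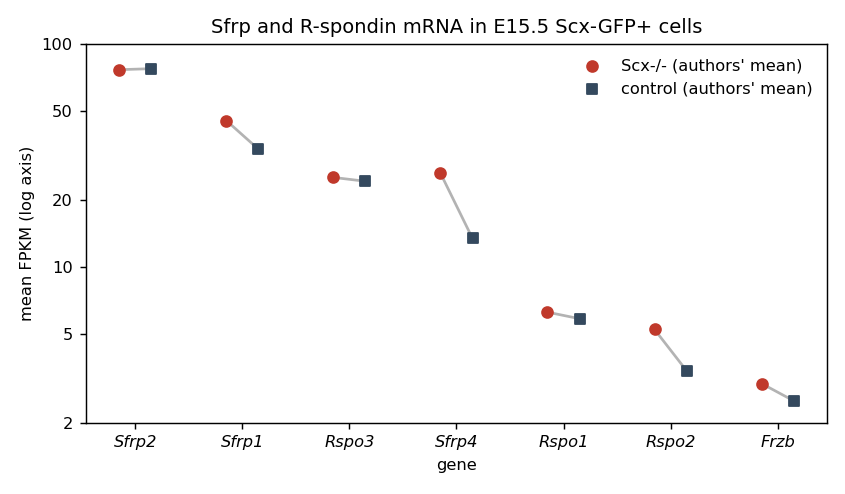
The authors' mean FPKM (log axis) of the 7 genes in *Scx*-/- cells (circles) and control cells (squares), ordered by the control level, with each pair joined by a line and no error bars because only group means were used. The pair of *Sfrp4* (26.4 and 13.4 FPKM) is the steepest, and that of *Sfrp2* (76.7 and 77.5 FPKM) is nearly flat.

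Of the R-spondins, *Rspo2* had the highest ratio. Rspo2 is required for limb and lung development in the mouse. Its authors' mean was 5.24 FPKM in *Scx*-/- cells, against 3.42 FPKM in control cells (log2 ratio 0.62, rank 57). With 1 FPKM added to both means, the log2 ratio was 0.50, under 1.5-fold. *Rspo2* extends over chr15:43020794-43170826 on the minus strand.

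*Rspo3*, which is needed for blood vessel formation in the mouse placenta, was the main R-spondin transcript. It averaged 25.2 FPKM in *Scx*-/- cells and 24.2 FPKM in control cells (log2 ratio 0.06, rank 3784) and lies at chr10:29452416-29535867 on the minus strand. *Rspo1*, known for its part in ovary formation, averaged 6.27 FPKM in *Scx*-/- cells and 5.86 FPKM in control cells (log2 ratio 0.10, rank 2601), with its gene at chr4:124986430-125009099 on the plus strand. *Rspo3* held 68.7% of the summed R-spondin FPKM in *Scx*-/- cells and 72.3% in control cells, *Rspo2* 14.3% in *Scx*-/- cells and 10.2% in control cells, and *Rspo1* 17.1% in *Scx*-/- cells and 17.5% in control cells. The sum of the 3 was 36.7 FPKM in *Scx*-/- cells and 33.5 FPKM in control cells.

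By level, the order in control cells was *Sfrp2*, *Sfrp1*, *Rspo3*, *Sfrp4*, *Rspo1*, *Rspo2* and *Frzb*. In *Scx*-/- cells *Sfrp4* came before *Rspo3*, at 26.4 FPKM against 25.2 FPKM, and the rest of the order was the same. Whether such neighbors differ beyond the spread between samples was not tested.

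In all, 6 of the 7 genes had a ratio above 1. At 1.5-fold or more, 2 of the 7 were higher in *Scx*-/- cells, beside 69 of 12123 genes (0.569%), and 0 of the 7 were lower, beside 74 of 12123 genes (0.610%). At 25% or more above control, 3 of the 7 were higher, beside 410 of 12123 genes (3.38%). The genes were chosen with these ratios known, so nothing is read from the counts. The median log2 ratio was 0.26 over the 7 genes and -0.000384 over the 12123 genes, of which the 5th and 95th percentiles were -0.25 and 0.27. *Frzb* lay just inside this range and *Sfrp1* outside it. Genes of low level varied more, since 1.03% of the genes at 1 to 10 FPKM were at 1.5-fold or more. *Rspo2*, *Rspo1* and *Frzb* are in that range of levels.

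**Figure D2:**
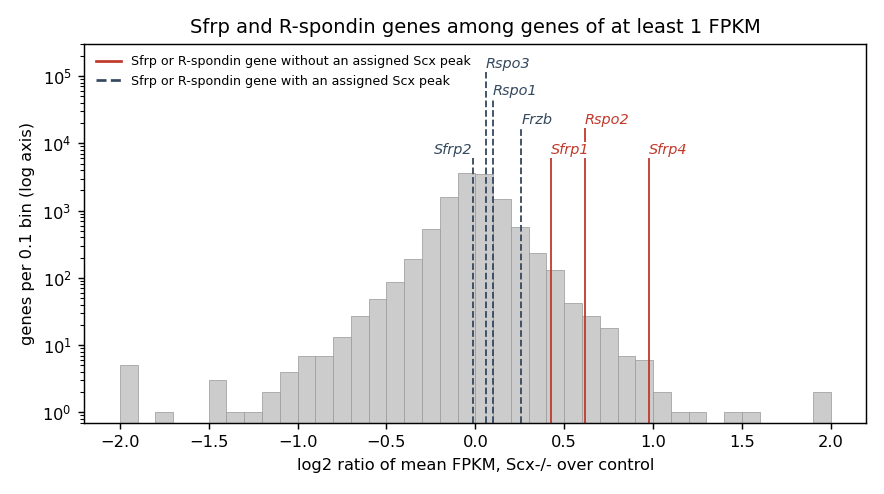
Numbers of genes (log axis) by log2 ratio of the authors' mean FPKM, *Scx*-/- over control, in bins of 0.1 over 12123 genes, with the end bins also holding values beyond 2 in size. Vertical lines mark the 7 genes, solid for those without an assigned Scx peak (*Sfrp4*, *Rspo2* and *Sfrp1*, at 0.97, 0.62 and 0.43) and dashed for those with one, which lie from -0.02 to 0.26. The means and the peaks both served in the choice of the 7 genes, so nothing is read from this split.

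Scx peaks fell unevenly over the 7 genes. *Sfrp2* had 8 peaks, *Frzb* 2, *Rspo1* and *Rspo3* 1 each, and *Sfrp1*, *Sfrp4* and *Rspo2* 0. A peak was assigned to a gene when its center lay in the gene's domain, which spans at least 5 kb before and 1 kb after the start and reaches outward to the domains of its neighbors, or 1000 kb at most. Under this rule 4 of the 7 genes had a peak, beside 7619 of 21938 protein-coding genes (34.7%), and since peaks entered the choice of the genes nothing is read from this share either. The means and the peaks both served in the choice, so nothing is read from which of the 7 genes have a peak and which have a higher mean.

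*Sfrp2* had as many peaks as the top 2.17% of protein-coding genes, in a domain of 712 kb. The peak nearest to its start, at chr3:83766337-83766536, covers the first exon in the 5′ untranslated region, with its center 116 bp downstream of the start. It was assigned to *Sfrp2* alone, was 78.5% G and C, the highest of the 12 peaks, and held no CANNTG and no TGGAAA. Of the other 7 peaks, those 31919 and 176460 bp upstream lie between genes, that 195485 bp upstream lies in an intron of *1700028M03Rik*, and those 590530 and 598762 bp upstream lie in introns of *Dchs2*, which encodes a protocadherin of the Dachsous family. All 5 were also assigned to *Dchs2*. The last 2, at 50407 and 61856 bp downstream in introns of *Gm7115*, were also assigned to *Tlr2*, which encodes a Toll-like receptor. With domains extended by at most 100 kb, or with each peak given to the nearest start, *Sfrp2* had 4 peaks, and with domains drawn over all annotated genes it had 2.

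*Frzb* had a peak inside the gene, 3541 bp downstream of its start, and another 41140 bp downstream, beyond the end of the gene. Both lay within 50 kb of the start and were kept under each rule of assignment tried. Both also fell in the domain of *Dnajc10*, an endoplasmic reticulum protein gene whose start lies 132 kb away. The *Rspo1* peak lay 32348 bp upstream, closer to the start of *Cdca8*, a mitosis gene, at 14771 bp, and went to *Cdca8* alone when peaks were given to the nearest start. The *Rspo3* peak lay 123715 bp upstream in a domain of 832 kb and was lost with domains extended by at most 100 kb or drawn over all annotated genes.

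The genes without a peak differed in how much sequence around them could have held one. *Sfrp4* has a domain of 78.7 kb, against a median of 89.5 kb over protein-coding genes. It is held in by *Epdr1*, which starts 3.18 kb upstream, and by *Nme8*, which starts 74.7 kb downstream. No peak was found for 5877 of the 11831 genes with a domain at least as long (49.7%), and for 77.2% of genes with domains of 50 to 100 kb. The nearest peaks to *Sfrp4* were at the *Stard3nl* promoter, 227450 bp upstream, and in an intron of *Elmo1*, 553072 bp downstream. *Sfrp1* has a domain of 369 kb. No peak was found for 937 of the 3365 genes with a domain at least as long (27.8%), and for 39.2% of genes with domains of 200 to 500 kb. The nearest peak to *Sfrp1*, at the *Gins4* promoter, lay 173663 bp upstream, and 28.1% of all genes had their nearest peak as far or farther.

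*Rspo2* was the most remote of the 7 from a Scx peak. Its domain of 599.7 kb, with a gene of 150.0 kb, held no peak, as in 538 of the 2049 genes with a domain at least as long (26.3%). The nearest peak lay 650539 bp downstream in an intron of *Angpt1*, which encodes a growth factor of blood vessels, and the nearest upstream lay at 1257395 bp, where *Eny2* and *Nudcd1* start. A nearest peak this far was found for 7.03% of genes. Lack of a listed peak means only that no region there passed the authors' threshold of 4-fold over input at an FDR of 0.01.

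**Figure D3:**
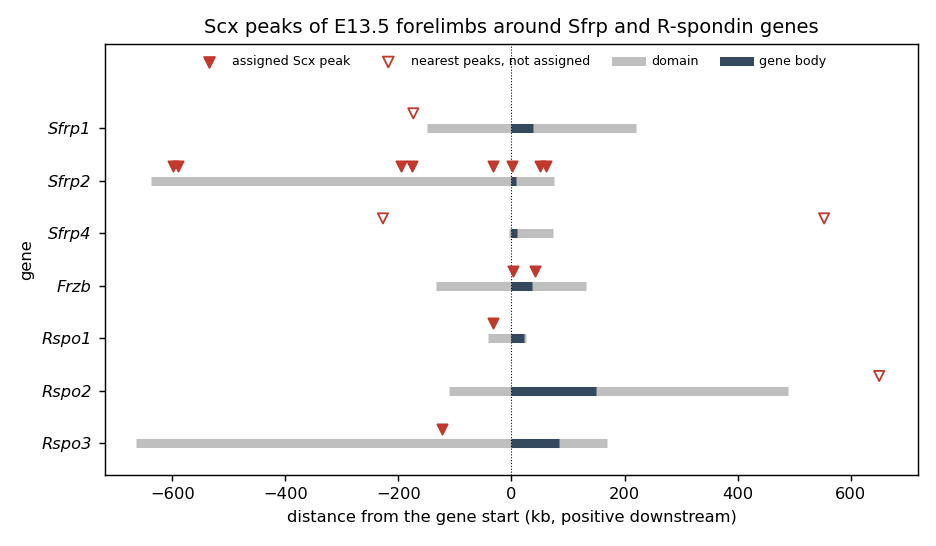
Scx peaks around the 7 genes by distance of the peak center from the gene start in kb, positive downstream, with assigned peaks as filled and the nearest unassigned peaks within the plotted range as open triangles, domains in grey and gene bodies in dark blue. *Sfrp2* has 8 filled triangles over 712 kb, and *Sfrp1*, *Sfrp4* and *Rspo2* have none within their domains.

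The forms of the E-box in these peaks were counted beside those in the Scx peaks at large, and whether they differ was not tested. The form CAGATG, spelled CATCTG when read from the opposite strand, was found 9 times, in 7 of the 12 peaks (58.3%), against 38.9% of all 12097 peaks. CAGCTG was in 1 of the 12 peaks (8.33%), against 27.98% of all peaks, and CATATG in 0, against 7.18%. These forms together, counted as the Scx core, were in 8 of the 12 peaks (66.7%), against 60.3% of all peaks, and any CANNTG in 10 (83.3%), against 78.4%. Thus the core was about as frequent as elsewhere, and 7 of the 8 peaks with a core held its CAGATG form. Motifs were searched on both strands, each form of the core is also a CANNTG, and with 12 peaks, 8 of them at 1 gene, the shares are a description.

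The *Rspo3* peak held CATCTG 3 times, more than any other of the 12. Both *Frzb* peaks, the *Rspo1* peak and the *Sfrp2* peaks 195485, 590530 and 598762 bp upstream held CAGATG or CATCTG once. The 1 CAGCTG was in the *Sfrp2* peak 31919 bp upstream, beside a CAGGTG. The *Sfrp2* peak 61856 bp downstream held no core but 4 other E-boxes, among them CACGTG, a form found in 3.04% of all peaks. The peaks were poorer in G and C than the rest, with a median of 44.0%, against 49.5% for all peaks.

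TGGAAA, the core sequence bound by Nfat transcription factors, was in 7 of the 12 peaks (58.3%), against 31.5% of all peaks. The Scx core and TGGAAA occurred together in 5 of the 12 (41.7%), against 21.9% of all peaks and 5.01% of 24194 windows of equal width placed 2000 bp to both sides of the peaks. In 3 of these 5 the motifs were at most 2 bp apart. The *Frzb* peak 41140 bp downstream reads TGGAAAaaCAGATG with a gap of 2 bp, the *Rspo1* peak reads TTTCCAagCATCTG with the same gap, and in the *Rspo3* peak the motifs share 2 bases as CATCTGGAAA. A distance this short was thus found in 3 of the 12 peaks, in 6.24% of all peaks (755) and in 0.566% of the windows (137).

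An E-box that runs directly into GAAA, so that its last bases open a TGGAAA, was in the *Rspo3* peak and, as CAAGTGGAAA, in the *Sfrp2* peak 61856 bp downstream, thus in 2 of the 12 (16.7%), against 7.15% of all peaks and 1.43% of the windows. In the *Sfrp2* peaks 598762 and 590530 bp upstream the gaps were 17 and 106 bp. The limit of 2 bp and the merged arrangement were chosen after the sequences had been seen, and the windows were not matched to the peaks in base composition. A match is a stretch of letters and not a shown site of either factor.

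The promoters were CpG-rich and held few of these motifs. Promoter sequences, from 250 bases before to 50 after the gene start, were taken from RefSeq on GRCm38 for the 3 of the 7 genes that matched, *Sfrp2*, *Frzb* and *Rspo1*. For *Frzb* this start differs from the one used for its peaks, chr2:80447625. Its window, chr2:80447347-80447646, thus lies mostly inside the gene as placed above. They were 66.0%, 64.7% and 69.0% G and C, against a median of 52.7% over 32851 promoters, and held 22, 20 and 29 CpG dinucleotides, against a median of 7. Those of *Sfrp2* and *Rspo1* held no CANNTG, which 72.3% of all promoters held. That of *Frzb* held 1, a CAGCTG (16.3% of all promoters), and that of *Rspo1* held 1 TGGAAA (21.4%).

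Most genes next to *Sfrp4*, *Sfrp1* and *Rspo2* had smaller ratios than these genes. Of the 12123 genes, 99.9%, 98.4% and 99.5% had a lower ratio than *Sfrp4*, *Sfrp1* and *Rspo2*. Almost any neighbor would thus have a smaller ratio, and nothing is read from it. *Epdr1*, whose start lies closest to that of *Sfrp4*, averaged 4.38 FPKM in *Scx*-/- cells and 3.72 FPKM in control cells, a 1.18-fold ratio. Beside *Sfrp1*, *Golga7*, which encodes a partner of a palmitoyltransferase, averaged 31.1 FPKM in *Scx*-/- cells and 27.6 FPKM in control cells. Beside *Rspo2*, *Angpt1* averaged 6.96 FPKM in *Scx*-/- cells and 6.57 FPKM in control cells, and the translation factor gene *Eif3e* 193 FPKM in *Scx*-/- cells and 189 FPKM in control cells. None of these 4 reached the ratio of the gene beside it. *Zmat4*, the next gene downstream of *Sfrp1* with 2 Scx peaks of its own, did so, at 0.899 FPKM in *Scx*-/- cells and 0.601 FPKM in control cells (1.49-fold), but it was below 1 FPKM. *Nme8*, the next gene downstream of *Sfrp4*, had no expression value.

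The same was looked at for genes that share a peak with one of the 7. *Dnajc10*, which shares both *Frzb* peaks, averaged 53.5 FPKM in *Scx*-/- cells and 53.2 FPKM in control cells. *Cdca8*, which shares the *Rspo1* peak, averaged 26.2 FPKM in *Scx*-/- cells and 29.5 FPKM in control cells. *Tlr2*, which shares peaks of *Sfrp2*, averaged 2.30 FPKM in *Scx*-/- cells and 2.48 FPKM in control cells, and *Cenpw*, which shares the *Rspo3* peak, 2.45 FPKM in *Scx*-/- cells and 2.47 FPKM in control cells. Their ratios ran from 0.888 to 1.01. *Dchs2*, which shares the upstream peaks of *Sfrp2*, had no expression value and could not be compared. On the other side of *Rspo3*, *Rnf146*, which encodes a ubiquitin ligase that acts on Axin, averaged 9.80 FPKM in *Scx*-/- cells and 9.68 FPKM in control cells. Antisense genes overlap *Sfrp2* (*Gm26771*), *Rspo1* (*Gm12930*) and *Rspo3* (*Gm48159*), and the sources used here do not say whether reads were counted by strand.

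Other Wnt pathway genes were counted by the same ratio. Of all 12123 genes, 410 (3.38%) were higher by 25% or more and 333 (2.75%) were lower by 20% or more, the same fold downward. At such shares lists of this size hold few such genes, so nothing is read from a count of 0. Of 14 other Wnt antagonist genes at 1 FPKM or more, 0 were higher and 2 were lower by these limits. Not all of the 14 encode secreted proteins, and their median log2 ratio was -0.06. The lower ones were *Shisa3*, whose protein holds back Frizzled maturation, at 2.42 FPKM in *Scx*-/- cells and 3.90 FPKM in control cells, and *Sfrp5*, the remaining Frizzled-related gene, at 1.19 FPKM in *Scx*-/- cells and 1.597 FPKM in control cells. *Wif1*, which encodes another Wnt-binding protein, averaged 9.61 FPKM in *Scx*-/- cells and 11.9 FPKM in control cells. *Igfbp4*, an IGF-binding protein gene whose product also binds Lrp6 and Frizzled, was the most abundant of them, at 299 FPKM in *Scx*-/- cells and 273 FPKM in control cells. *Sfrp5* was thus the one Frizzled-related gene lower by this much.

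Of 5 genes for R-spondin receptors and ubiquitin ligases at 1 FPKM or more, 0 passed these limits in either direction (median log2 ratio 0.07). The receptor genes *Lgr4* and *Lgr5* averaged 26.5 and 12.1 FPKM in *Scx*-/- cells and 22.3 and 11.3 FPKM in control cells. *Sdc4*, which encodes a heparan sulfate proteoglycan that binds R-spondins, averaged 19.2 FPKM in *Scx*-/- cells and 18.3 FPKM in control cells. The 1.19-fold ratio of *Lgr4* was the largest of this list.

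Of 7 Wnt ligand genes, 0 passed the upper limit and 1 the lower, *Wnt2*, at 1.71 FPKM in *Scx*-/- cells and 2.20 FPKM in control cells. The most abundant ligand gene, *Wnt5a*, averaged 52.2 FPKM in *Scx*-/- cells and 46.7 FPKM in control cells. Of 19 receptor genes 1 was lower, *Fzd10* (1.45 FPKM in *Scx*-/- cells and 1.82 FPKM in control cells), and 0 were higher, and of 22 core pathway genes 0 passed in either direction. The median log2 ratios were 0.09 for ligands and 0.01 for both receptors and core genes. *Ctnnb1*, which encodes β-catenin, averaged 199.8 FPKM in *Scx*-/- cells and 198.9 FPKM in control cells.

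Of 10 genes known to respond to canonical Wnt signaling, at 1 FPKM or more, 0 passed these limits. Over all genes 3.38% passed upward and 2.75% downward, so nothing is read from this count. The log2 ratios of the 10 ran from -0.31 to 0.07, with a median of -0.06. The remaining gene of this list, *Sp5*, which encodes a zinc finger factor, was below 1 FPKM, at 0.473 FPKM in *Scx*-/- cells and 0.861 FPKM in control cells (0.55-fold), the lowest ratio of the list. Of the 10, *Myc* had the lowest ratio, at 20.9 FPKM in *Scx*-/- cells and 25.9 FPKM in control cells, followed by *Tcf7* (2.83 FPKM in *Scx*-/- cells and 3.21 FPKM in control cells). *Axin2*, the negative feedback gene of the pathway, averaged 12.9 FPKM in *Scx*-/- cells and 13.4 FPKM in control cells, and *Ccnd1*, the cyclin D1 gene, 66.3 FPKM in *Scx*-/- cells and 63.3 FPKM in control cells. Whether the mean ratio of the 7 genes differs from that of these lists was not tested, since the 7 were chosen on it.

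**Figure D4:**
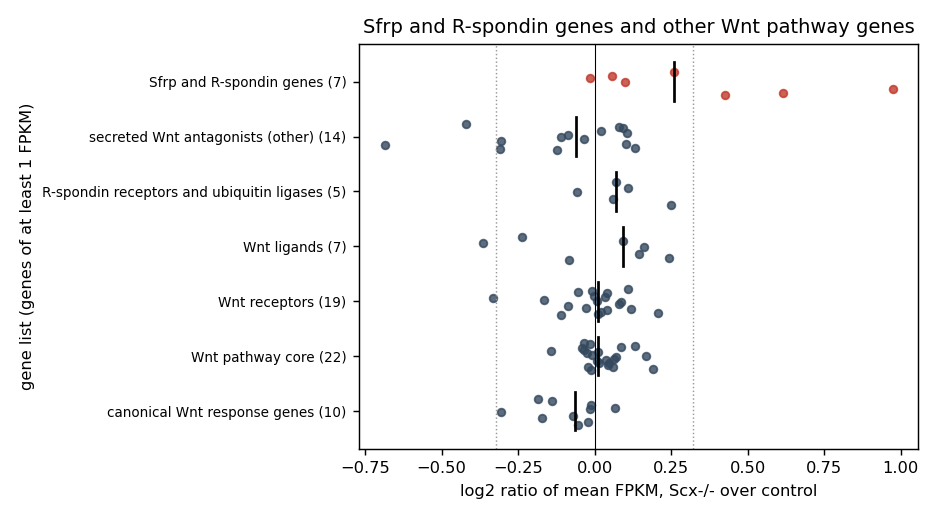
Log2 ratio of the authors' mean FPKM, *Scx*-/- over control, for the 7 genes and 6 lists of other Wnt pathway genes, with 1 point per gene of at least 1 FPKM, a black bar at each median and dotted lines at 25% above and 20% below control. Points past the right dotted line belong to *Sfrp1*, *Rspo2* and *Sfrp4*, those past the left one to *Shisa3*, *Sfrp5*, *Wnt2* and *Fzd10*, and the medians of the other lists lie between -0.06 and 0.09. Not all genes in the list of secreted antagonists encode secreted proteins.

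Levels of *Scx*, of cell type markers and of *Xist* in the 2 groups are given beside these ratios. *Scx* itself averaged 41.9 FPKM in *Scx*-/- cells and 88.6 FPKM in control cells, 47.3% of control, which is only a partial check of the labels. The allele keeps untranslated exon sequence, but where the remaining *Scx* reads fall was not examined. By in situ hybridization with a probe for the coding sequence, the paper found no *Scx* mRNA in mutant embryos. With the same limits, of 10 tendon markers 6 were lower by 20% or more, among them *Tnmd*, at 13.8 FPKM in *Scx*-/- cells and 135 FPKM in control cells, and their sum was 2733 FPKM in *Scx*-/- cells and 3374 FPKM in control cells. Markers of loose connective tissue and of joints had closer sums. Those for loose connective tissue, where 1 of 11 markers was higher and 1 lower, were 2746 FPKM in *Scx*-/- cells and 2610 FPKM in control cells. *Dpt*, the higher one, which encodes the matrix protein dermatopontin, averaged 147 FPKM in *Scx*-/- cells and 110.3 FPKM in control cells. Of 8 joint markers 2 were higher, *Prg4* and *Barx1* (5.40 and 2.77 FPKM in *Scx*-/- cells, 3.70 and 1.74 FPKM in control cells), with sums of 134 FPKM in *Scx*-/- cells and 128 FPKM in control cells.

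Of 7 cartilage markers 2 were lower and 0 higher, with sums of 116 FPKM in *Scx*-/- cells and 138 FPKM in control cells, and of 9 muscle markers 1 was lower, with sums of 446 FPKM in *Scx*-/- cells and 419 FPKM in control cells. Blood markers, 2 of 5 of them higher, summed to 73.0 FPKM in *Scx*-/- cells and 57.0 FPKM in control cells, epidermal markers, 1 of 4 higher, to 20.5 FPKM in *Scx*-/- cells and 17.1 FPKM in control cells, and endothelial markers, 0 of 5 either way, to 27.97 FPKM in *Scx*-/- cells and 28.1 FPKM in control cells. The sums include the list genes below 1 FPKM, which were not counted. No marker in the table was at 0 in either group. *Xist*, expressed from the inactive X chromosome of female cells, averaged 24.9 FPKM in *Scx*-/- cells and 175 FPKM in control cells. The part of cell composition and of embryo sex in the ratios of the 7 genes was not tested.

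The genes closest in level in both groups were found by the distance between log2 means over these 2 points, among 11962 genes. For *Sfrp4* no close match existed. The nearest were *Fxyd1*, a regulator of the sodium pump, at 21.6 FPKM in *Scx*-/- cells and 15.2 FPKM in control cells (distance 0.336), and *Ndrg2*, at 24.9 FPKM in *Scx*-/- cells and 16.8 FPKM in control cells (distance 0.339). For *Sfrp1* they were the globin genes *Hbb-b2* and *Hbb-bt*, both at 44.7 FPKM in *Scx*-/- cells and 34.7 FPKM in control cells (distance 0.0442). For *Rspo2* they were *Gm9855* and *Tdg*, a DNA glycosylase gene, at distances of 0.0433 and 0.0534. *Sfrp2*, *Frzb*, *Rspo1* and *Rspo3*, which lie among many genes of equal means, were matched most closely by *Magoh*, *Cntn4*, *Tiam1* and *Rnh1*, at distances of 0.00802, 0.00751, 0.00244 and 0.00284.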

How the data were processed

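RNA-seq and ChIP-seq were analysed from the authors' deposited tables. The authors aligned RNA-seq reads of 3 *Scx*-/- and 3 control samples to mm10 with STAR, counted them per gene with featureCounts, left out chromosome Y genes and deposited the mean FPKM of each group for 15671 genes, beside their own log2 fold changes, p-values and FDR (DESeq2 after RUVs), which were not used. The sources used here do not say whether the means include the RUVs adjustment, which was meant to account for sex. The sources used here do not name the gene annotation behind the counts. The deposited score column of the peak table holds 0 for each of the 12097 peaks, which the authors called with HOMER on down-sampled, deduplicated reads, merged over 3 ChIP samples and kept at over 4-fold over input and an FDR of 0.01 by edgeR. The submitters' processing notes name STAR 2.7.4 and HOMER 4.11.

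Here the ratio of the 2 means was taken without a pseudocount, over genes averaging at least 1 FPKM. The design assumed no values per sample, so no test was run, depth and precision are unknown, and a gene was counted as past a fold only by its ratio of means. Peaks were assigned by the basal plus extension rule with GENCODE M21 on GRCm38. Python 3.11.15, pandas 2.3.3 and pysam 0.24.0 were used, and the code was tested on simulated data. Genes named were the 7 genes, *Scx*, genes from the 2 nearest per gene, and genes of the pathway lists. Per pathway list, up to 3 genes of at least 1 FPKM with the largest ratio and the one of highest level were selected. Not all of the selected genes are given in the text. *Sp5* and *Rspo4*, below 1 FPKM, were named outside this rule. *Axin2*, *Xist*, neighboring genes and the markers named singly were chosen after their values were seen. Gene names that had been turned into dates (21) were not matched. The 7 genes and all lists were chosen with earlier results of these data known.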

Additional observations from a re-analysis of the deposited data

How the results depend on the processing

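No paired analysis was possible because only group means were used, and for the same reason no replicate could be left out. A stricter peak threshold was not run, since the table holds no measure of strength for single peaks, and protein sequences were not compared. Of 77 recomputed values 60 kept within 0.1 (log2) or 1.5 times (counts) of the value in the report, and 17 moved. With 1 FPKM added to both means, the log2 ratio of *Rspo2* was 0.50. The share of genes at 1.5-fold or higher was 4.21% without a filter, 0.0603% with a filter of 5 FPKM, 3.38% at 25% above control and 0.0660% at 2-fold. The share at 1.5-fold or lower was 3.91% without a filter, 0.241% with a filter of 5 FPKM, 2.75% at 20% below control and 0.140% at 2-fold. *Sfrp2* had 4 peaks with domains extended by at most 100 kb and 4 by the nearest start, and 2 within 50 kb of the start and 2 with domains drawn over all annotated genes. *Rspo1* had 0 by the nearest start, and *Rspo3* had 0 with at most 100 kb, 0 within 50 kb and 0 over all annotated genes. *Sfrp1*, *Sfrp4* and *Rspo2* had 0 peaks under each of the 6 rules, and *Frzb* had 2. No direction was reversed.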

Other observations

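*Rspo4*, the remaining R-spondin gene, was below the filter of 1 FPKM, at 0.363 FPKM in *Scx*-/- cells and 0.190 FPKM in control cells, and had 1 Scx peak, 3481 bp from its start. *Hbb-b2* and *Hbb-bt*, the genes closest to *Sfrp1* in level, are near-identical copies with the same means in the table, so they count as 1 value.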
